A study of Mus musculus with 8 samples.

Results

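Mouse embryonic stem cells that received a siPOOL against Wiz were compared with cells that received a siPOOL against Zic2. The comparison was made gene by gene over 4 of the 8 libraries of the series, 2 with the Wiz siPOOL (siWiz) and 2 with the Zic2 siPOOL (siZic2). Of 55421 genes counted, the 14647 that passed a filter on low counts were tested. The libraries with the negative control siPOOL (siNeg, 2 libraries) and the Tfap4 siPOOL (siTfap4, 2 libraries) did not enter the difference, and their levels are given as a reference only. They did enter the estimate of the spread.

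A siPOOL is a mixture of many small interfering RNAs against 1 transcript, so that each single sequence is present at a low concentration. All groups were the same 129/Ola cells, kept on gelatin in serum with LIF. All carried a knockout of the miR-290-295 cluster, so the microRNAs of that cluster are missing from the controls too. Each siPOOL was given at 5 nM with RNAiMax for 36 h, in biological duplicates, and transcript ends were sequenced with a 3′ kit (QuantSeq) from 500 ng of RNA.

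Wiz is a zinc finger protein of the G9a and GLP (Ehmt2 and Ehmt1) complex, which methylates histone H3 at lysine 9 and represses transcription. It has also been described at CTCF and cohesin sites. Zic2 is a zinc finger transcription factor of the Zic family, relatives of the Gli factors of Hedgehog signalling. Zic2 is known for its roles in forebrain development and, in embryonic stem cells, at enhancers together with the NuRD complex. Loss of H3K9 methylation or of other repressors in these cells is known to release genes of the 2-cell embryo, such as Zscan4 and Usp17-like genes, which are on in only a small share of cells of a culture.

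Mature microRNAs of the deleted cluster are shown because every cell compared here lacks them. They are given from RefSeq, build GRCm38.p6, plus strand of chromosome 7, with the seed (bases 2 to 8) in capitals. The first 3 have the same seed, and that of miR-290a-3p is not identical to it.
miR-291a-3p: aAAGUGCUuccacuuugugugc
miR-294-3p: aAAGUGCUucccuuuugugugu
miR-295-3p: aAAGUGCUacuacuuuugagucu
miR-290a-3p: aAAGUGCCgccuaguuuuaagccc

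The promoters of Usp17la and Usp17lc, deubiquitinase genes of the 2-cell embryo, are shown because both had more reads in each siWiz library than in each siZic2 library and because the copies resemble each other. Each runs from 250 bases before to 50 bases after the start (RefSeq, GRCm38.p6, plus strand). Usp17la lies at chr7:104856766-104857065 and Usp17lc at chr7:103416446-103416745. The capitals mark the longest run that both promoters share, 49 bases.
Usp17la: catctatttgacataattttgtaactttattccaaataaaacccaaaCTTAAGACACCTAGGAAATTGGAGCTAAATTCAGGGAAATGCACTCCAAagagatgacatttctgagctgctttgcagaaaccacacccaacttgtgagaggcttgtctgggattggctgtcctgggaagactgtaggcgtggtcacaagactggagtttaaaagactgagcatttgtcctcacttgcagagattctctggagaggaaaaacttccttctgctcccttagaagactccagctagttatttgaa
Usp17lc: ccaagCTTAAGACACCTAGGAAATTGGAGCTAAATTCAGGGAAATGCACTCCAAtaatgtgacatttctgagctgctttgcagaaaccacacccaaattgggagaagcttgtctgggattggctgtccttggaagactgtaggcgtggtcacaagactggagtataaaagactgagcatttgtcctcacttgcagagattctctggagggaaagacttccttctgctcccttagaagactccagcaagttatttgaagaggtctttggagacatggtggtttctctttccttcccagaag

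The 8 libraries held 8326675 to 13788856 counted reads (11200948 and 10544436 in siWiz, 13788856 and 9328709 in siZic2). The embryonic stem cell markers Pou5f1, Sox2, Nanog, Zfp42, Esrrb, Dppa5a and Utf1 were all detected, and their summed level was 2226 to 3092 CPM in the 4 libraries compared (CPM are the counts of a gene scaled to a common library total). The fibroblast markers summed to 11.3 to 12.8 CPM, most of it Thy1, and Postn was at 0 in all 4 libraries. The second libraries of siWiz and siNeg stood apart from the first. On the first principal component of all tested genes (59.8% of the variance), siWiz_1 lay at 36.4 and the siZic2 libraries at 35.4 and 38.9, while siWiz_2 lay at 1.85. siNeg_2 (15.6, against 32.9 for siNeg_1) also lay toward the siTfap4 libraries (-103 and -57.7). On the second component (14.4% of the variance) the second library lay below the first in every group. The values there were 3.62 and -35.2 in siWiz, 24.3 and -3.29 in siZic2, 31.0 and -24.1 in siNeg, and 26.9 and -23.3 in siTfap4. Values without siWiz_2 are therefore given beside the results that it moved most.

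The targeted transcripts were read first. Wiz (ENSMUSG00000024050, chr17:32354055-32389439, minus strand) was at 16.8 and 19.7 CPM in siWiz and at 43.9 and 37.5 CPM in siZic2, with 49.9 and 46.1 CPM in siNeg. Both siWiz libraries were below every other library of the series, since siTfap4 held 30.1 and 35.9 CPM. The mean was 18.2 ± 2.06 (SD, n = 2) in siWiz and 40.7 ± 4.52 (SD, n = 2) in siZic2. The siWiz level was thus 44.7% of the siZic2 level (95% confidence interval 31.3 to 63.8%). The log2 difference was -1.16 (SE 0.24). Its unadjusted p of 0.000271 was the smallest of all 14647 genes in edgeR's quasi-likelihood test, but after Benjamini-Hochberg adjustment it was 1.00, so Wiz did not pass the threshold of 0.05. With no filter on low counts beyond 1 read, its adjusted p was 0.0418. Without siWiz_2 the difference was -1.28. The gene models Gm22201 and Gm26858 overlap Wiz on the opposite strand, and the strand setting of the counting is not given in the sources used here.

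Zic2 (ENSMUSG00000061524, chr14:122475435-122479852, plus strand) was a weakly read transcript. It was at 2.59 and 2.01 CPM in siWiz and at 2.15 and 1.83 CPM in siZic2, from 17 to 31 reads a library, and the groups overlapped. The log2 difference was 0.20 (SE 0.46, unadjusted p = 0.674 in edgeR), which puts the siWiz level between 57.5 and 229% of the siZic2 level (95% confidence interval). A lower Zic2 transcript in the cells with the Zic2 siPOOL was thus not detectable against siWiz at this depth. The siNeg libraries were at 4.49 and 2.21 CPM and the siTfap4 libraries at 6.20 and 5.39 CPM. Directions below therefore rest on the label of the siZic2 libraries, not on a measured loss of its target transcript. Tfap4, the target of the series' other siPOOL, was at 28.6 and 32.9 CPM in siWiz and at 31.0 and 33.0 CPM in siZic2.

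**Figure D1:**
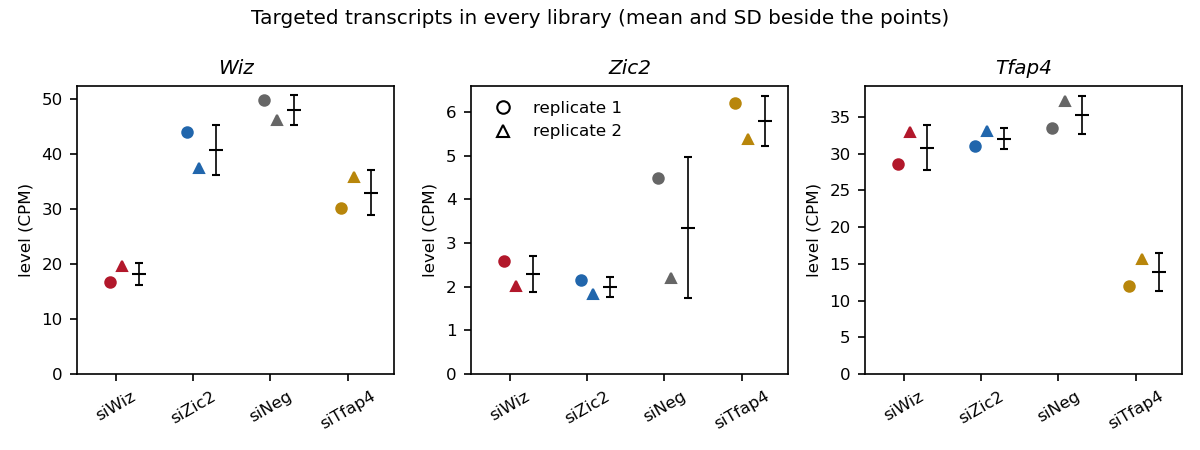
Level in CPM of the 3 targeted transcripts in each of the 8 libraries, grouped by siPOOL; points are libraries, their shape gives the replicate, and the bar beside them is the mean with its SD (n = 2). Wiz was at 16.8 and 19.7 CPM in siWiz, below every other library, and the Zic2 points of siWiz and siZic2 overlap.

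Across all genes, 0 of 14647 (0%) passed an adjusted p of 0.05 in edgeR, and 0 passed in DESeq2. 384 genes had an unadjusted p below 0.05 (2.62% of those tested), 141 with siWiz higher (0.963%) and 243 with siWiz lower (1.66%). The 2 siWiz values lay wholly above or wholly below the 2 siZic2 values for 5121 genes (35%), above for 2650 (18.1%) and below for 2471 (16.9%). The median log2 difference over all genes was 0.01, with quartiles of -0.21 and 0.20. The 141 higher genes were mostly weakly read, with a median of 2.47 CPM, and 102 of them were protein-coding. The 243 lower genes had a median of 11.4 CPM, and 211 were protein-coding. Since no gene passed the adjusted threshold in this fit, the genes are described by their levels. The count at an unadjusted p below 0.05 moved with the library left out. It was 910 without siWiz_1 (223 higher, 687 lower), 166 without siWiz_2 (79 higher, 87 lower), 210 without siZic2_1 (88 higher, 122 lower) and 200 without siZic2_2 (100 in each direction).

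The genes named next, 15 each way, had the smallest unadjusted p among genes whose siWiz and siZic2 values did not overlap and whose mean was 5 CPM or more. Among the 15 lower genes, Wiz itself came first. Without siWiz_2 the log2 differences of the 15 ran from -1.28 to -0.50, and 7 kept an unadjusted p below 0.05. Trp53, which encodes the tumour suppressor p53, was at 33.3 and 31.0 CPM in siWiz and at 59.8 and 49.6 CPM in siZic2 (log2 -0.77, SE 0.25). Taf4, a subunit of the general factor TFIID, was at 9.90 and 3.82 CPM against 24.4 and 20.2 CPM (log2 -1.70, SE 0.55). Its spread within siWiz was wide, and without siWiz_2 the difference was -1.17. Eaf1, a partner of the ELL elongation factors, was at 20.5 and 11.7 CPM against 32.9 and 39.5 CPM (log2 -1.17, and -0.82 without siWiz_2). Foxj1, the regulator of motile cilia, was at 6.24 and 2.86 CPM against 11.8 and 13.4 CPM (log2 -1.46, and -1.01 without siWiz_2).

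Abca1, the cholesterol efflux transporter, was at 12.8 and 10.1 CPM in siWiz and at 29.7 and 26.4 CPM in siZic2 (log2 -1.29, SE 0.32, unadjusted p = 0.0012 in edgeR). Its siNeg values of 26.4 and 13.5 CPM both lay above siWiz. Bmp2k, a kinase induced by BMP2, was at 9.81 and 5.54 CPM against 19.8 and 15.4 CPM (log2 -1.19, SE 0.32, and -0.84 without siWiz_2), again with both siNeg values (16.0 and 12.1 CPM) above siWiz. Slc33a1, the acetyl-CoA transporter of the endoplasmic reticulum, was at 3.48 and 2.39 CPM against 7.90 and 8.39 CPM. Man2a1, a Golgi mannosidase that trims N-glycans, was at 12.4 and 6.97 CPM against 22.3 and 18.8 CPM (log2 -1.09, and -0.73 without siWiz_2). For Man2a1 the siNeg values (14.0 and 7.88 CPM) lay below siZic2 and overlapped siWiz. Bag2, a co-chaperone of Hsp70, had the same arrangement, with 6.69 and 4.11 CPM in siWiz, 12.5 and 11.4 CPM in siZic2 and 6.32 and 5.19 CPM in siNeg. Its log2 difference was -1.15, and -0.84 without siWiz_2.

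Rbm47, an RNA-binding protein, had the highest level of the 15, with 160 and 107 CPM in siWiz and 243 and 211 CPM in siZic2. Its log2 difference was -0.77, and -0.50 without siWiz_2. Lrrc17, a secreted leucine-rich repeat protein, was at 31.3 and 43.6 CPM against 67.0 and 58.2 CPM, and with Wiz it was 1 of the 2 for which siWiz_2 was nearer to siZic2 than siWiz_1 was. Sike1, a suppressor of the kinase IKK epsilon, was at 22.6 and 19.6 CPM against 36.8 and 36.5 CPM. Fam53c was at 32.3 and 30.9 CPM against 51.8 and 62.3 CPM, and Cystm1 was at 18.5 and 9.65 CPM against 29.9 and 40.1 CPM. The log2 difference of Cystm1 was -1.31, and -0.91 without siWiz_2.

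Without siWiz_2 the log2 differences of the 15 higher genes ran from 0.50 to 1.32, and 6 kept an unadjusted p below 0.05. Prmt8, a membrane-anchored arginine methyltransferase, was at 12.8 and 12.6 CPM in siWiz and at 4.85 and 6.56 CPM in siZic2. siNeg, at 5.07 and 6.73 CPM, lay near siZic2 and below siWiz. Its log2 difference was 1.17 (SE 0.31, 2.24-fold, unadjusted p = 0.00212 in edgeR), and it was 1.18 without siWiz_2. Des and Myh13 encode muscle proteins, the intermediate filament desmin and a myosin heavy chain. Des was at 8.47 and 10.8 CPM against 4.44 and 4.84 CPM, and Myh13 at 31.7 and 21.2 CPM against 16.8 and 11.7 CPM. For both genes siNeg (5.07 and 7.50 CPM for Des, 15.7 and 11.9 CPM for Myh13) lay below siWiz.

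Tbc1d16, a GTPase-activating protein for Rab proteins, was at 8.20 and 8.50 CPM in siWiz and at 4.71 and 3.12 CPM in siZic2. Ehd3, an endocytic recycling ATPase, was at 8.29 and 9.74 CPM against 2.91 and 5.81 CPM, and Trappc6a, a subunit of the TRAPP tethering complex, at 15.7 and 18.6 CPM against 9.98 and 9.79 CPM. Cdkn1c, the imprinted gene of the cyclin-dependent kinase inhibitor p57, was at 49.9 and 62.3 CPM against 31.0 and 33.1 CPM (log2 0.81, SE 0.28). Its siNeg values were 32.1 and 40.0 CPM, below both siWiz values. Rit1, a Ras-like GTPase, was far apart in the 2 siWiz libraries, at 6.87 and 13.0 CPM against 4.99 and 4.73 CPM, and siNeg overlapped siWiz at 4.74 and 9.32 CPM. The log2 difference of Rit1 was 1.02, and 0.50 without siWiz_2. Prelid2, Lysmd4, Hyi and Tstd1 differed by 0.78 to 0.85 on the log2 scale, and the other 3 were gene models without a name, Gm49432, Gm21761 and 4631405K08Rik. Tstd1 overlaps Usf1 on the same strand, so their reads may have been split.

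The negative control was set beside these levels. Both siNeg values lay on the siZic2 side of both siWiz values for 13 of the 15 higher genes and for 8 of the 15 lower genes (Wiz, Abca1, Bmp2k, Fam53c, Trp53, Lrrc17, Rbm47 and Sike1). For 15 of the 15 lower genes siNeg_2 was below siNeg_1 and both siTfap4 values lay below both siZic2 values, and for 13 of 15 siWiz_2 was below siWiz_1. Both siNeg values lay on the siWiz side of both siZic2 values for 5 of 15 genes in each direction. Among the higher genes, siNeg_2 was above siNeg_1 for 11 of 15 and siWiz_2 above siWiz_1 for 10 of 15. Both siTfap4 values lay above both siZic2 values for 11 of these 15. The shares of all genes with these siNeg and siTfap4 arrangements were not counted, so the counts cannot be called particular to the named genes. The 15 higher genes spanned log2 differences of 0.78 to 2.01 and the 15 lower genes -1.70 to -0.74.

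**Figure D2:**
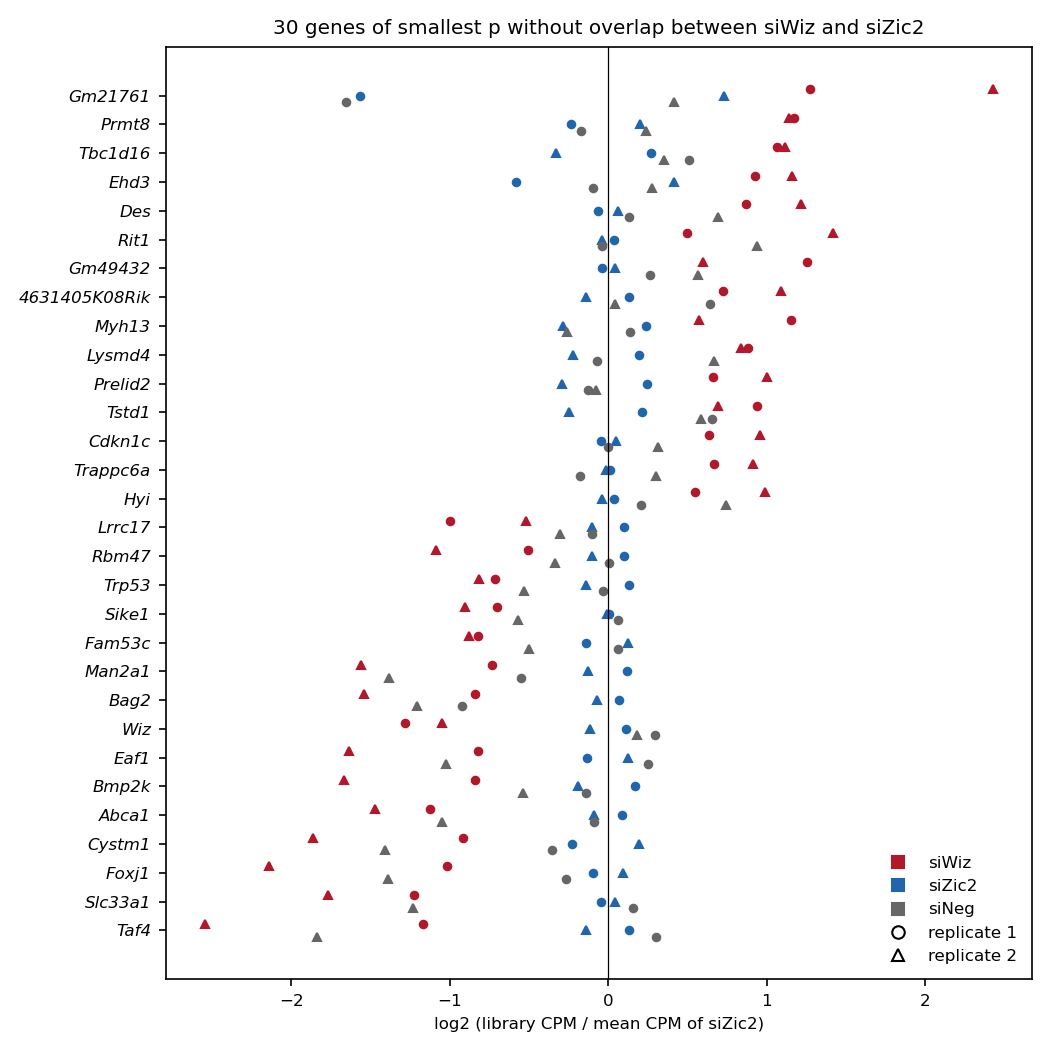
Log2 level of the 15 lower and 15 higher named genes in each library relative to the siZic2 mean, 1 row per gene, with points for the libraries of siWiz, siZic2 and siNeg. By the rule that chose these genes the siWiz points lie wholly to 1 side of the siZic2 points. The siNeg points lie on the siZic2 side for 13 of the 15 higher and 8 of the 15 lower genes, which the choice of genes can also produce.

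Of 10110 genes with a mean of at least 5 CPM, 60 were at least 2-fold lower in siWiz and 7 were at least 2-fold higher. The 7 were Gm21761, Timp3, Prmt8, Tbc1d16, Ehd3, Des and Rit1. Of the 60, 57 were protein-coding, and they included Wiz, Taf4, Nr0b1, Notum, Pmpcb, part of the peptidase that trims mitochondrial presequences, and Pfn1, the actin monomer binder profilin. Pfn1 was at 25.5 and 6.40 CPM in siWiz, 42.8 and 54.3 CPM in siZic2, and 51.5 and 12.5 CPM in siNeg, so the second siNeg library lay between the 2 siWiz libraries.

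siWiz_2 was lower than siWiz_1 for 57 of 60, siNeg_2 was lower than siNeg_1 for 60 of 60, and the siTfap4 mean was below the siZic2 mean for 60 of 60. The shares of all genes with these orders were not counted, so the counts cannot be called particular to the 60. As a median percentage of the siZic2 mean, these genes were at 58.4 and 24.9% in the siWiz libraries, 117 and 36.1% in siNeg, and 14.5 and 17.6% in siTfap4. The siZic2 libraries themselves were at 91.7 and 108%. With siWiz_1 alone, 12 of the 60 remained at least 2-fold lower (median log2 difference -0.77), and 4 of the 7 higher genes remained at least 2-fold higher (median 1.05). Between the 2 siWiz libraries, 356 genes were at least 2-fold apart, and between the 2 siZic2 libraries 76. For 57 of the 60 both siWiz values lay below both siZic2 values (16.9% of all genes did), which follows in large part from the choice of genes lower in siWiz.

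**Figure D3:**
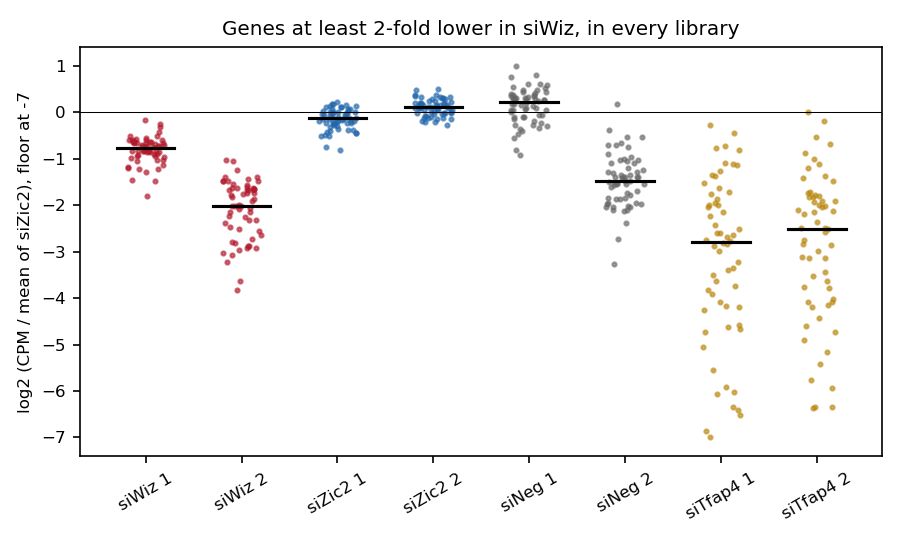
Level of each of the 60 genes at least 2-fold lower in siWiz, as log2 of the ratio to the siZic2 mean with a floor at -7, in each of the 8 libraries; dots are genes and black lines their medians. The medians were 58.4 and 24.9% of the siZic2 mean in siWiz and 36.1% in siNeg_2, and the siTfap4 libraries lay lowest.

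Genes of the 2-cell embryo were weakly read. Of 15 listed 2C-like markers 5 passed the count filter, and 1 of these, Usp17lc, passed only through the siWiz libraries, so its difference was in part set by the filter. The median of the 5 log2 differences was 1.35 (0.01 over all genes), which is given as a description only. 3 had both siWiz values above both siZic2 values (18.1% of all genes did), 2 had an unadjusted p below 0.05, and 0 passed the adjusted threshold. The 2 were Usp17lc and Usp17la. The median was 0.89 without siWiz_2, 2.10 without siWiz_1, 0.85 without siZic2_1 and 2.09 without siZic2_2. Among genes with a mean of at least 5 CPM only Eif1a is left of the list, and the median is 0.12. In bulk RNA, fewer cells of a type and less RNA per cell cannot be told apart.

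The reads behind these values were few. Usp17lc had 28 and 37 reads in siWiz, 6 and 7 reads in siZic2, and 2 and 6 reads in siNeg. Both siWiz libraries were far above the siZic2 and siNeg libraries. They were not far above siTfap4, which had 5 and 20 reads. In CPM, siTfap4_2 (2.345) lay close to siWiz_1 (2.497). The log2 difference of Usp17lc between siWiz and siZic2 was 2.39 (SE 0.72, 5.25-fold, unadjusted p = 0.00533 and adjusted p = 1.00 in edgeR), and 2.12 without siWiz_2. Usp17la had 25 and 68 reads in siWiz, 9 and 13 reads in siZic2, and 11 and 26 reads in siNeg, with a log2 difference of 2.15 (SE 0.77) and of 1.19 without siWiz_2. For Usp17la the second siNeg library reached the count of the first siWiz library, and siTfap4_2 (3.75 CPM) lay above siWiz_1 (2.23 CPM).

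Zscan4c, whose protein acts in telomere upkeep, depended on 1 library. It had 10 and 48 reads in siWiz, 10 and 14 reads in siZic2, and 4 and 12 reads in siNeg, so only siWiz_2 was high. The log2 difference of 1.35 (SE 0.98) was -0.25 without siWiz_2. Zscan4d was at 18 and 21 reads in siWiz, 6 and 13 reads in siZic2, and 8 and 11 reads in siNeg (log2 1.06, SE 0.74), and its groups did not overlap in CPM. The fifth tested marker, Eif1a, a translation initiation factor gene, had 2970 and 2395 reads in siWiz against 3200 and 2162 in siZic2, a log2 difference of 0.12.

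Further genes of the same families were looked at after their values had been seen, so they are given as levels. A window of chromosome 12 (chr12:87514316-88324026) holds a cluster of gene models related to Eif1a. Of its 74 genes 16 had reads and 7 were tested, of which Gm2022 and Gm5662 passed the filter only through the siWiz libraries. Gm4027 had 19 and 27 reads in siWiz, 3 and 3 reads in siZic2, and 4 and 12 reads in siNeg. Gm5039 had 33 and 74 reads in siWiz, 8 and 11 reads in siZic2, and 7 and 16 reads in siNeg. siTfap4 was at 0.620 and 1.52 CPM for Gm4027 and at 1.24 and 3.75 CPM for Gm5039. For Gm5039 siTfap4_2 thus lay above siWiz_1 (2.94 CPM). In both genes each siWiz library exceeded each siZic2 and siNeg library. Gm2022 (14 and 29 reads against 2 and 6) and Gm8300 (25 and 52 against 9 and 19) were arranged alike, and Gm5662 (28 and 31 against 7 and 19) had a wider spread in siZic2. Gm8332 overlapped siZic2, at 1.16 and 3.15 CPM in siWiz against 0.208 and 1.18 CPM. Gm2056 overlapped too, at 0.803 and 2.67 against 0.208 and 0.968 CPM. Thus 5 of the 7 lay wholly above siZic2 in CPM (18.1% of all genes did), in a window picked after its values were seen.

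Sums over each family hold every member, whether or not it passed the filter. The 6 Usp17-like genes summed to 6.60 and 11.3 CPM in siWiz, 1.11 and 2.47 CPM in siZic2, and 1.16 and 3.46 CPM in siNeg, a ratio of the siWiz to the siZic2 mean of 4.99. The 9 Zscan4 genes summed to 4.64 and 11.3 CPM in siWiz, 1.46 and 4.41 CPM in siZic2, and 1.41 and 3.27 CPM in siNeg (ratio 2.71). The 6 genes related to Tcstv1, a further 2-cell gene group that includes Gm21761, summed to 19.4 and 52.8 CPM in siWiz, 3.88 and 13.8 CPM in siZic2, and 2.91 and 12.1 CPM in siNeg (ratio 4.09). The chromosome 12 window summed to 13.5 and 27.1 CPM in siWiz, 2.56 and 8.82 CPM in siZic2, and 3.49 and 7.21 CPM in siNeg (ratio 3.57). In each of the 4 sums both siWiz libraries were above both siZic2 and both siNeg libraries.

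The replicate number moved with these sums too. The second library was the higher one in each of the 4 groups for each of the 4 sums. In siTfap4 the Usp17-like sum was 1.98 and 7.50 CPM and the Tcstv1-related sum 4.84 and 20.4 CPM, and in all 4 sums its second library exceeded the first siWiz library. As both siWiz sums were above both siZic2 and both siNeg sums, their order within replicate numbers followed from that and is not a separate result. Reads of these copies can also be shared. The 50-base words in the last 300 bases of each gene's longest transcript were looked up anywhere in transcripts of other genes. Of these words, 100% were found for Gm4027 and for Gm8332, 96% for Gm2056 and 95.6% for Gm2022. The share was 77.3% for Gm5662, 73.7% for Gm21761, 62.9% for Zscan4c and 47.4% for Zscan4d. It was 22.3% for Gm8300, 17.5% for Gm21818, 12.7% for Gm5039 and 6.77% for Usp17la and for Usp17lc. How reads that match several copies were counted is not given in the sources used here, so the values of single members with a high shared part are uncertain.

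**Figure D4:**
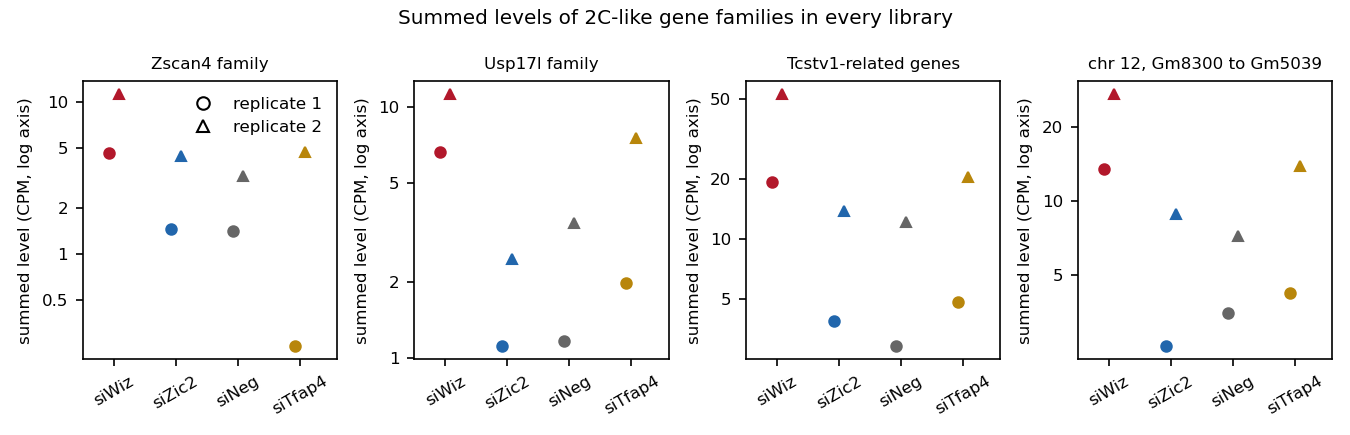
Summed level in CPM of 4 groups of genes of the 2-cell embryo in each library, on a log axis, with 1 panel per group of genes and points for libraries. Both siWiz points lie above both siZic2 and both siNeg points in each panel, and the second library of each siPOOL lies above the first.

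The list of the H3K9 methylation machinery holds Wiz, its partners Ehmt1 and Ehmt2 and further H3K9 factors, demethylases among them. All 22 listed members were tested. Wiz was the 1 member with an unadjusted p below 0.05. Of the 22, 8 had a log2 difference above 0, 5 lay wholly below and 1 wholly above siZic2 (16.9% and 18.1% of all genes did), and the median was -0.07 (0.04 without siZic2_1 and -0.20 without siZic2_2). The catalytic partners Ehmt1 (145 and 107 CPM in siWiz, 122 and 100 CPM in siZic2) and Ehmt2 (46.8 and 60.5 against 63.1 and 54.8 CPM) overlapped. Zfp644, a further zinc finger subunit, overlapped as well (97.3 and 116 against 109 and 91.6 CPM), as did Trim28, the KRAB corepressor (748 and 1036 against 877 and 871 CPM), and Cbx5, which encodes the heterochromatin protein HP1 alpha (526 and 530 against 607 and 488 CPM). Setdb1, the H3K9 methyltransferase that works with Trim28, was at 33.6 and 14.4 CPM against 42.7 and 36.9 CPM. Its log2 difference of -0.73 (SE 0.37, unadjusted p = 0.072 in edgeR) rested on siWiz_2 and was -0.24 without it.

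Of the 14 listed Zic, Gli and Hedgehog genes 12 were tested. Their median log2 difference was -0.21 (-0.40 without siWiz_1 and -0.08 without siWiz_2). 4 lay wholly below siZic2 (16.9% of all genes did) and 0 wholly above, and 2 had an unadjusted p below 0.05, both lower. Hhip, the decoy receptor that binds Hedgehog ligands, was at 50.7 and 52.1 CPM in siWiz, 74.8 and 81.6 CPM in siZic2, and 79.6 and 61.4 CPM in siNeg (log2 -0.61, SE 0.22, unadjusted p = 0.0176 in edgeR). Both siWiz values were below all siZic2 and siNeg values, and the difference was -0.63 without siWiz_2. Smo, the transducer of the Hedgehog signal, was read at 2.41 and 3.15 CPM in siWiz, 5.06 and 6.78 CPM in siZic2, and 3.57 and 1.92 CPM in siNeg (log2 -1.08, SE 0.43), so siNeg overlapped siWiz.

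The receptors and factors of the pathway lay closer together. Ptch1, the Hedgehog receptor, was at 174 and 183 CPM in siWiz and 166 and 177 CPM in siZic2. Gli1, the transcription factor that is itself a target of the pathway, was at 42.1 and 56.3 against 47.3 and 56.5 CPM, and Gli2, its activator relative, at 45.3 and 34.5 against 43.4 and 46.7 CPM. Zic5, a relative of Zic2, was at 36.5 and 29.4 CPM in siWiz, 54.3 and 40.2 CPM in siZic2, and 34.8 and 25.4 CPM in siNeg (log2 -0.52). For Zic5 it was the siZic2 libraries that lay above the other groups.

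Lists of described partners of both factors were read in the same way. The 15 CTCF and cohesin genes had a median of -0.03 and a range of -0.20 to 0.23, and 0 had an unadjusted p below 0.05. The 14 NuRD genes had a median of -0.12, with 4 wholly below and 1 wholly above siZic2 (16.9% and 18.1% of all genes). 0 of the 23 clustered protocadherin genes, which depend on CTCF in neurons, passed the count filter. The 16 tested imprinted genes had a median of 0.03. 2 of them had an unadjusted p below 0.05, both higher, Cdkn1c and H19, and 5 lay wholly above siZic2 (18.1% of all genes). H19, an imprinted noncoding RNA, was at 5.08 and 9.74 CPM in siWiz and at 3.47 and 4.52 CPM in siZic2. The 13 tested germline genes had a median of -0.08.

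Lists of the stem cell state and of its signals had medians below 0, with few members past the unadjusted threshold. The 13 general pluripotency factors had a median of -0.13 and a range of -0.25 to 0.09. Of the 20 naive factors 7 lay wholly below siZic2 and 2 wholly above, against 16.9% and 18.1% of all genes. The median was -0.15, and 2 had an unadjusted p below 0.05, Nr0b1 and Spp1 (log2 -0.62, SE 0.29, for Spp1). Nr0b1 (Dax1), a nuclear receptor of the naive state, was at 60.9 and 35.5 CPM in siWiz, 102 and 150 CPM in siZic2, and 151 and 41.2 CPM in siNeg. Its log2 difference was -1.38 (SE 0.52), and -1.05 without siWiz_2. From the list of Wnt target genes, Notum, the Wnt-inactivating feedback enzyme, was at 45.301 and 19.004 CPM in siWiz and 74.1 and 105 CPM in siZic2. In siNeg it was at 111 and 22.2 CPM, and its log2 difference was -1.47 (SE 0.60, and -0.98 without siWiz_2).

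The 16 ERK target genes had a median of -0.28, with 5 wholly below and 2 wholly above siZic2 (16.9% and 18.1% of all genes). Spred2, a feedback inhibitor of the pathway, was at 12.7 and 4.77 CPM in siWiz, 20.9 and 24.3 CPM in siZic2, and 27.8 and 8.84 CPM in siNeg (log2 -1.37, SE 0.48, and -0.83 without siWiz_2). Myc, the growth regulator, was at 2.23 and 0.955 CPM in siWiz, 4.23 and 7.21 CPM in siZic2, and 11.2 and 1.92 CPM in siNeg (log2 -1.81, SE 0.68, and -1.34 without siWiz_2). For Spred2, Myc, Nr0b1 and Notum alike, siNeg_2 lay between the 2 siWiz libraries and siNeg_1 above both siZic2 libraries. In all 4 genes both siWiz values were below both siZic2 values, so their order within replicate numbers is not a separate result.

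Of 24 tested p53 target genes, 9 lay wholly below siZic2 and 2 wholly above (16.9% and 18.1% of all genes), with a median of -0.19. 1 of them, Sesn1 (sestrin 1), had an unadjusted p below 0.05, at 6.96 and 4.58 CPM in siWiz and 9.29 and 11.9 CPM in siZic2. The median of the 30 ribosomal protein genes was 0.18, with 6 wholly above and 1 wholly below (18.1% and 16.9% of all genes). Their summed level was 37247 and 41038 CPM in siWiz and 29102 and 40567 CPM in siZic2, so the sums were close in the second replicates. Among the 12 tested genes of the RNA interference machinery, Tnrc6c, a GW182 protein that works with Argonautes, was at 41.6 and 43.8 CPM in siWiz, 70.2 and 65.8 CPM in siZic2, and 70.5 and 51.0 CPM in siNeg (log2 -0.67, SE 0.26). The 11 tested genes described as targets of the deleted microRNAs had a median of -0.04 and ranged from -0.76 to 0.46.

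Over all 33 lists, 464 of 562 listed genes were tested. 0 of them passed the adjusted threshold. An unadjusted p below 0.05 in edgeR was found for 4 higher and 20 lower genes, 5.17% of the listed genes against 2.62% of all genes tested. The lists were chosen with earlier results of these data known and include Wiz itself, so these shares are a description and not a test. Markers of other cell types that a culture could hold were summed too. Primitive endoderm markers summed to 422 and 466 CPM in siWiz and 460 and 391 CPM in siZic2, trophectoderm markers to 211 and 271 against 219 and 278 CPM, and neural markers to 106 and 133 against 124 and 143 CPM, each with overlap between the groups. Mesoderm markers, of which Bmp4 made up most, summed to 164 and 144 CPM against 153 and 229 CPM, with a median log2 difference of -0.32 over the 5 tested. Sparc made up most of the endoderm sum and Tfap2c most of the trophectoderm sum. The fibroblast sums did not overlap (11.5 and 11.3 CPM in siWiz, 12.8 and 11.8 CPM in siZic2). Gata4, an endoderm and heart factor, lay wholly below siZic2, at 1.07 and 0.955 against 2.22 and 2.47 CPM, as did the neural factor Sox21, at 9.90 and 8.60 against 16.4 and 16.9 CPM. Their unadjusted p were 0.038 and 0.0291 in edgeR. They are named because they had the smallest p of their lists, and Gata4 rests on 10 to 32 reads a library. Of the tested members, 5 of 13 endoderm and 3 of 7 neural genes had a log2 difference above 0. Wholly below siZic2 lay 4 endoderm and 2 neural genes (16.9% of all genes did), and wholly above lay 0 in either list (18.1% of all genes did). The neural marker Neurog2, the mesoderm marker Msgn1 and the endoderm marker Afp were at 0 in all 4 libraries.

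**Figure D5:**
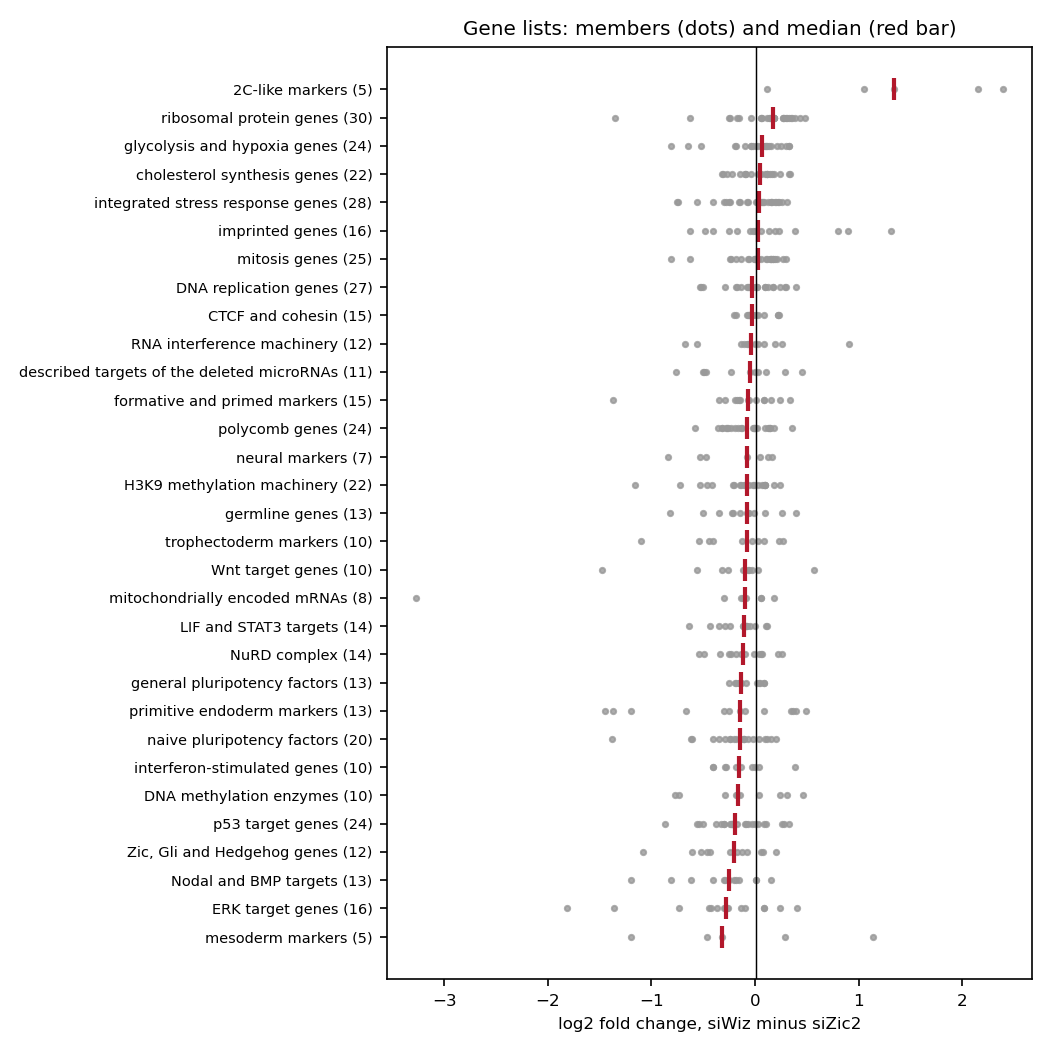
Log2 difference of siWiz minus siZic2 for each tested member of the gene lists with at least 5 tested members, 1 row per list, with dots for genes, a red bar for the median of the list and a black line at the median of all genes. The 2C-like markers have the highest median (1.35), with 1 of 5 members let in by the siWiz libraries alone, and the medians of the other lists lie between -0.32 and 0.18.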

How the data were processed

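The values are raw read counts per gene for 8 libraries, as the authors deposited them, without normalization or pooling of replicates. Trim Galore and the build GRCm38 are named in the submitters' processing notes. Of the aligner, the counting tool, its strand setting and any molecular identifiers, nothing is given in the sources used here. Replicates are biological duplicates per the series' design text, with no further account of how the cultures were separated.

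Genes were named from GENCODE M21 (55240 of 55421 matched, 181 did not), whose GRCm38 coordinates are given. Genes were filtered with filterByExpr, scaled by TMM and tested with edgeR 4.0.16 (R 4.3.3, limma 3.58.1). The quasi-likelihood fit had 1 mean per group over all 8 libraries, which leaves 4 residual degrees of freedom. The contrast was siWiz minus siZic2, with Benjamini-Hochberg adjustment over 14647 genes and a threshold of 0.05. The SE of a log2 difference was its size divided by the square root of F. CPM are counts scaled to a common library total with TMM factors. The biological coefficient of variation was 22.2%. The count variance between replicates, relative to that of sampling alone, was 19.4 in siWiz and 17.7 in siZic2, so no library was a copy of another. Depth was 8326675 to 13788856 reads a library. Low counts limit precision, and reads need not be separate molecules.

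Named genes were the 3 targeted genes and the 15 of smallest p each way among genes with no overlap and a mean of 5 CPM or more. Members and gene lists were chosen with earlier results of these data known. Lists are described by counts and medians, with no test of the set. Further families were picked after their values were seen. Alternatives were another scaling (edgeR's RLE size factors or library totals), other filters and DESeq2 1.42.0 as the test. Further ones were other sets of libraries, the replicate number as a block, and each library left out. The scripts were tested on simulated counts. Some listed genes are not reported here.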

Additional observations from a re-analysis of the deposited data

How the results depend on the processing

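The count of genes past an adjusted p of 0.05 was 0 in the fit described and stayed 0 with other size factors, library totals alone, a minimum mean of 5 CPM, DESeq2, the 4 compared libraries alone, siTfap4 left out, and each library left out in turn (0 to 0). With no filter beyond 1 count (26969 genes) it was 23, 4 higher and 19 lower, with 5 list members among them and Wiz at -1.20 (adjusted p = 0.0418 in edgeR). The numbers 1 and 2 are shared by the groups, but nothing says that they pair cultures. Deviations of the same-numbered siWiz and siZic2 libraries correlated at 0.17, and those of the other pairs of groups between -0.04 and 0.33. With the replicate block in all 8 libraries the count was 0. With the replicate block and the 4 compared libraries alone it was 39, 4 higher and 35 lower, with 4 list members and Wiz at -1.19 (adjusted p = 0.0152 in edgeR). Taf4 (-1.81), Nr0b1 (-1.42), Notum (-1.58), Pfn1 (-1.83) and Spred2 (-1.48) were among the 39. The count at an unadjusted p below 0.05 (384) was 849 with no filter, 181 above a mean of 5 CPM, 810 with the 4 libraries alone, 659 with the block in 8 libraries and 1358 with the block in 4.

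Leaving out 1 library gave Wiz -1.28 to -1.04 and Zic2 0.01 to 0.37, with no call. Over 47 named genes and 787 alternative values, 764 kept their direction and side of the threshold, 22 passed it and 1 changed sign, Zscan4c, which ran from -0.25 (without siWiz replicate 2) to 2.10 (without siWiz replicate 1). Depth limits the 2C-like genes and Zic2, which rest on few reads a library.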
